A study of Mus musculus with 2 samples.

Results

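The genes that write, maintain or remove DNA methylation were examined in mouse induced pluripotent stem cells (iPSCs, body cells turned back to resemble embryonic stem cells): Dnmt1, Uhrf1, Dnmt3a, Dnmt3b, Dnmt3l, Tet1 and Tet2. They are 7 of the 27998 genes in the count tables, and they were listed by name for their known roles. Their levels were read in cells with at least 1000 detected genes, from 1 to 10% mitochondrial counts and at most 1 transcript count over 8 primitive endoderm genes (Gata6, Gata4, Sox17, Pdgfra, Dab2, Cubn, Lrp2 and Amn). Of the 1073 cells from the knockout 592 (55.2%) met it, as did 880 (92.2%) of the 954 from the wild type.

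The knockout iPSCs were SRFΔ/Δ, with both alleles of Srf deleted, and the wild-type iPSCs were SRFf/f, with both alleles floxed and intact. Srf encodes serum response factor, a transcription factor that drives serum-induced and actin cytoskeleton genes. Both kinds of cell were grown in medium with serum and captured in droplets on the 10x Genomics Chromium platform. Each genotype was 1 library, the labels do not say how many cultures or clones stood behind it, and no test between the genotypes was possible. Each interval below is a 95% interval of counting error alone, and each difference compares a pair of libraries without a replicate check.

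In mammals, methyl groups on cytosines of CpG sites are set on unmethylated DNA by Dnmt3a and Dnmt3b, the de novo methyltransferases, with the help of Dnmt3l, a cofactor that has no catalytic activity. Dnmt1 copies the marks onto the new strand after replication, and Uhrf1 recruits it to hemimethylated sites. Tet1 and Tet2 oxidise 5-methylcytosine, which leads to its removal. Mouse pluripotent cells carry both arms at once, and the balance between them is known to differ between the naive state and the formative state that follows it. Only RNA was measured here, and methylation itself was not.

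The kept cells held 14760131 UMIs (unique molecular identifiers, each standing for 1 captured transcript) in the knockout library and 22833473 in the wild-type library, with medians of 24466.5 and 26624 per cell. Srf itself had 4 UMIs in the knockout library and 198 in the wild-type library, or 0.271 against 8.67 UMIs per 1000000 UMIs (CPM). The 8 pluripotency markers summed to 2783 CPM in the knockout library and 2791 CPM in the wild-type library, with none at 0. The libraries stood apart in other ways. The 13 fibroblast markers summed to 241.9 against 78.7 CPM, and none of the 13 in the knockout library and 1 in the wild-type library was at 0. The median mitochondrial share of a cell was 4.37% against 3.48%, and a raised share of chromosome 8 transcripts was seen in 280 of the 592 knockout cells and in 88 of the 880 of the wild type. No member lies on chromosome 8, where the median log2 ratio of genes was 0.26, against -0.04 to 0.08 on the other chromosomes.

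The maintenance pair had nearly the same level in both libraries. Dnmt1 (ENSMUSG00000004099, chr9:20907209-20959888 in GRCm38, minus strand) had 611 UMIs in the knockout library and 913 in the wild-type library, at 41.4 CPM (interval 38.2 to 44.8) and 40.0 CPM (37.4 to 42.7). The log2 ratio, knockout over wild type, was 0.05 (interval -0.10 to 0.20). Uhrf1 (ENSMUSG00000001228, chr17:56303321-56323486, plus strand) had 1438 and 2081 UMIs, at 97.4 CPM (92.5 to 102.6) and 91.1 CPM (87.3 to 95.1), a log2 ratio of 0.10 (-0.0017 to 0.19). Both intervals held 0, so no difference was detectable in these sums at this depth. For Uhrf1 the value moved with the setting. Its log2 ratio was 0.21 in thinned cells, 0.12 in unthinned cells of at least 15000 UMIs and -0.0040 with 0 primitive endoderm UMIs required. The cause of these moves was not tested. Dnmt1 made up 29.8% of the UMIs of the pair in the knockout library (exact Clopper-Pearson interval 27.8 to 31.9) and 30.5% (28.8 to 32.2) in the wild-type library, so the proportion of the pair was alike as well.

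The de novo group was where the libraries differed most. Dnmt3a (ENSMUSG00000020661, chr12:3806007-3914443, plus strand) had 1400 UMIs in the knockout library and 1055 in the wild-type library, although the knockout library was the smaller. Its level was 94.9 CPM (89.9 to 99.95) against 46.2 CPM (43.5 to 49.1), 2.05-fold higher (1.89 to 2.23), with a log2 ratio of 1.04 (0.92 to 1.15). Among the 6461 genes that averaged 10 CPM or more, 99.1% had a lower ratio. Dnmt3b (ENSMUSG00000027478, chr2:153649450-153687730, plus strand), the enzyme that predominates in the early embryo, had 1226 and 1847 UMIs, at 83.1 CPM (78.5 to 87.8) and 80.9 CPM (77.2 to 84.7). Its log2 ratio was 0.04 (-0.07 to 0.14), so the paralogs were not alike: one was higher in the knockout library by a factor near 2, and the interval of the other held 0.

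Dnmt3l (ENSMUSG00000000730, chr10:78041947-78063622, plus strand) stood on the opposite side. It had 1083 UMIs in the knockout library and 2731 in the wild-type library, at 73.4 CPM (69.1 to 77.9) and 119.6 CPM (115.2 to 124.2). It was 1.63-fold lower in the knockout library (1.52 to 1.75), a log2 ratio of -0.70 (-0.81 to -0.60), and 1.44% of the 6461 genes had a lower ratio. The first 1664 bases of Dnmt3l overlap Aire, a gene on the other strand. Aire was also lower in the knockout library, with 199 and 494 UMIs, 13.5 and 21.6 CPM and a log2 ratio of -0.68 (-0.93 to -0.44). Whether the counting used the strand is not given in the sources used here, so reads of the shared stretch cannot be told apart. The nearest other genes with at least 10 CPM were Pfkl, with a log2 ratio of -0.49, and D10Jhu81e, with -0.20. Beside Dnmt3a, the neighbours Dtnb, Asxl2 and Ptrhd1 had log2 ratios of -0.17, 0.44 and -0.04, all below that of Dnmt3a.

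The proportions within the de novo group followed these levels. Dnmt3a gave 53.3% of the UMIs of Dnmt3a and Dnmt3b in the knockout library (51.4 to 55.2) and 36.4% (34.6 to 38.1) in the wild-type library. Dnmt3l gave 43.6% of the UMIs of Dnmt3l and Dnmt3a in the knockout library (41.7 to 45.6) and 72.1% (70.7 to 73.6) in the wild-type library. Set against Dnmt3b, Dnmt3l gave 46.9% (44.9 to 49.0) and 59.7% (58.2 to 61.1). UMIs of different genes need not be captured equally, so only the difference in a share between libraries is read from these values, and not which gene of a pair was more abundant.

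The Tet genes were slightly higher in the knockout library. Tet1 (ENSMUSG00000047146, chr10:62804570-62908996, minus strand) had 1967 and 2647 UMIs, at 133.3 CPM (127.4 to 139.3) and 115.9 CPM (111.6 to 120.4), a log2 ratio of 0.20 (0.12 to 0.29). Tet2 (ENSMUSG00000040943, chr3:133463679-133545139, minus strand) had 460 and 588 UMIs, at 31.2 CPM (28.4 to 34.1) and 25.8 CPM (23.7 to 27.9), a log2 ratio of 0.28 (0.10 to 0.45). Tet2 gave 19.0% of the UMIs of the pair in the knockout library (17.4 to 20.6) and 18.2% (16.9 to 19.5) in the wild-type library. Both ratios depended on which cells were counted. Among cells whose chromosome 8 share was not raised they were 0.39 for Tet1 and 0.54 for Tet2. With every cell of at least 1000 genes and at most 10% mitochondrial counts they were -0.09 and 0.06, so the direction for Tet1 turned.

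All 7 genes passed the minimum of 10 CPM. Of the 7, 1 (Dnmt3a) was at least 1.5-fold higher in the knockout library, against 4.72% of all 6461 genes, and 1 (Dnmt3l) was at least 1.5-fold lower, against 2.48%. Dnmt3a was also the 1 gene at least 2-fold higher, against 0.975% of all genes, and 0 of the 7 were 2-fold lower, against 0.635%. The median log2 ratio of the 7 was 0.10, and that of all 6461 genes was 0.06 with 10th and 90th percentiles of -0.31 and 0.43. The ratios of Dnmt1, Uhrf1, Dnmt3b, Tet1 and Tet2 thus lay within the range of most genes.

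**Figure D1:**
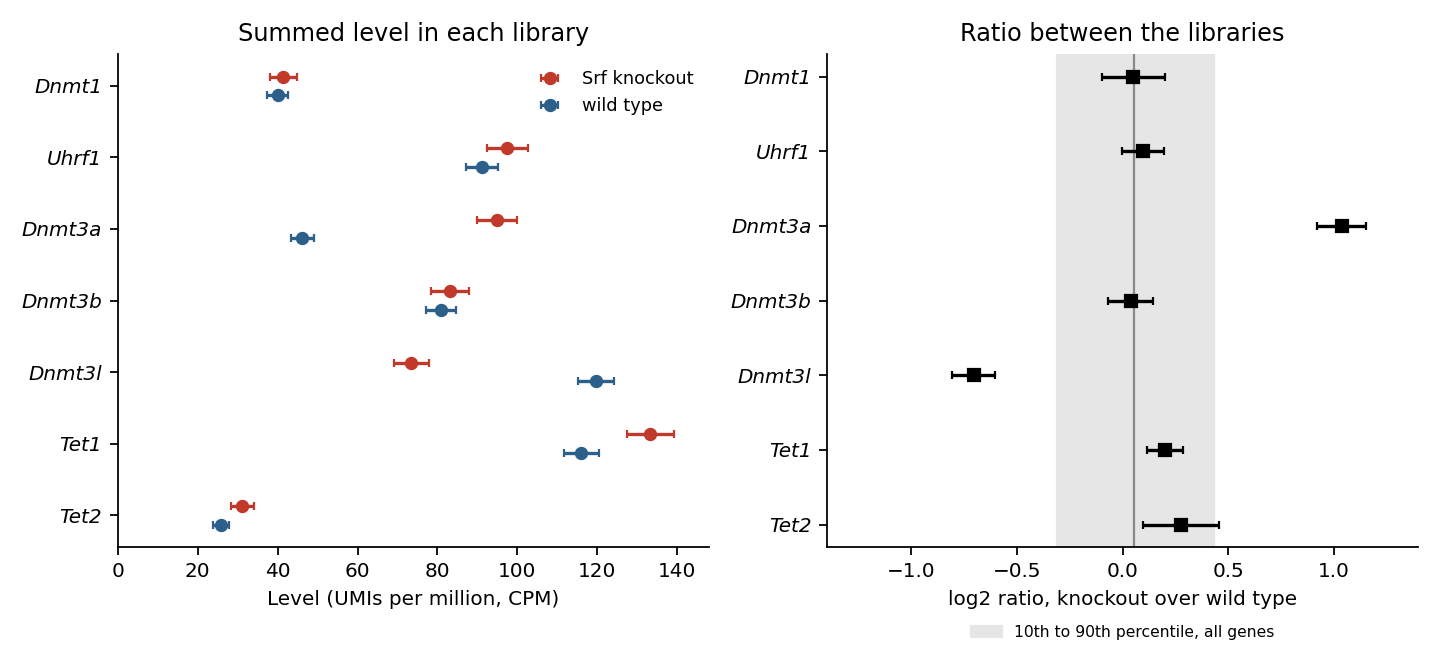
Left, level of each gene in UMIs per 1000000 UMIs (CPM) in the Srf knockout library and the wild-type library, with exact 95% counting intervals. Right, log2 ratio of knockout over wild type with its 95% counting interval; the grey band spans the 10th to 90th percentile of 6461 genes (-0.31 to 0.43) and the grey line marks their median (0.06), and Dnmt3a (1.04) and Dnmt3l (-0.70) lie outside the band.

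Promoter sequences were drawn from RefSeq (GRCm38.p6), which gave 14 windows of 250 bases before to 50 bases after a transcript start for the 7 genes. The motif CC, 6 letters of A or T, GG (the CArG box bound by serum response factor) was in 0 of the 14 windows and in 1.63% of all 32851 windows of the same length. E2F motifs, searched on both strands as TTTCCCGC, TTTCGCGC, TTTGCCGC and TTTGGCGC, were in 2 of the 14, 1 of Dnmt1 and 1 of Uhrf1, against 2.26% of all windows. The stretch of Uhrf1 before the start of its inner transcript is printed because it holds one of them, in capitals (chr17:56304063-56304312, plus strand, outside the annotated exons).
Uhrf1: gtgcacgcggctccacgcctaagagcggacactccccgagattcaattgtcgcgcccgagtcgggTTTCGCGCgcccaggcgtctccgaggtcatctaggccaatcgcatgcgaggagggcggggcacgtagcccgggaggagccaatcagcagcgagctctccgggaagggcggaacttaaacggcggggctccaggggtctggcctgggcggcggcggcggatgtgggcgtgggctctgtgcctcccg
The windows of the de novo genes differed in CpG content, the substrate of these enzymes. A window of all genes held a median of 7 CpG sites. Those of Dnmt3a held 46, 47 and 18, that of Dnmt3b held 30, and those of Dnmt3l held 6, 4 and 3. The stretches before the outer and the inner start of Dnmt3a (chr12:3806730-3806979 and chr12:3891494-3891727, plus strand) and before an inner start of Dnmt3l (chr10:78049592-78049841, plus strand) are printed for this contrast, with every CpG in capitals.
Dnmt3a outer: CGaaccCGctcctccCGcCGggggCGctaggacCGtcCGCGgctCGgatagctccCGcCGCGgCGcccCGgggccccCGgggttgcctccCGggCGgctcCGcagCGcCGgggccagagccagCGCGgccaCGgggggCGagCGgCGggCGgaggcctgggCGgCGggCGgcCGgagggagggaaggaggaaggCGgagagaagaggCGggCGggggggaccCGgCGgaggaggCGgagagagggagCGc
Dnmt3a inner: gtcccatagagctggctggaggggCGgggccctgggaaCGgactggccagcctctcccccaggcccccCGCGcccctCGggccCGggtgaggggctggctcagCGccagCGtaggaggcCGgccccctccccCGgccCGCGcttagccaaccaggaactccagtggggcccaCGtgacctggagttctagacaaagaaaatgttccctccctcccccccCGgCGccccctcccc
Dnmt3l inner: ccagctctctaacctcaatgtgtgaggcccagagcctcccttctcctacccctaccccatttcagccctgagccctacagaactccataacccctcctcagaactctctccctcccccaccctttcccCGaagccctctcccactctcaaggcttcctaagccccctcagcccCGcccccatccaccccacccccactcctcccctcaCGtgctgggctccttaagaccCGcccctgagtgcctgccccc
The printed stretches hold 38, 15 and 4 CpG sites in turn. A match or its absence describes these letters in this window only, and binding and methylation there were not measured.

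To compare cells at 1 depth, each cell was thinned to 10235 UMIs, which left out the shallower 65 knockout and 83 wild-type cells. Dnmt3a was then found in 278 of the 527 cells of the knockout library (52.8%, Clopper-Pearson interval 48.4 to 57.1) and in 248 of the 797 of the wild type (31.1%, 27.9 to 34.5). At least 2 UMIs of Dnmt3a were held by 25.8% and 9.54% of cells. Unthinned, the shares with a UMI were 69.6% and 53.2%. More cells of the knockout library therefore held the transcript, and more of them held several copies. Dnmt3l was found in 231 of the 527 knockout cells (43.8%, 39.5 to 48.2) and in 449 of the 797 others (56.3%, 52.8 to 59.8), and unthinned in 65.4% and 75.9%. At least 2 UMIs of it were held by 16.3% and 30.0% of cells, and the most in 1 cell were 6 in the knockout library and 11 in the wild-type library. The wild-type library thus had the cells of highest Dnmt3l count.

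The other 5 genes had shares that overlapped within their intervals. After thinning, the knockout and wild-type shares were 35.1% and 32.7% for Dnmt1, 60.7% and 59.2% for Uhrf1, and 51.2% and 49.1% for Dnmt3b. They were 66.6% and 65.1% for Tet1 and 28.1% and 24.3% for Tet2. Unthinned, they ran from 46.6% for Tet2 to 83.1% for Tet1 in the knockout library, and from 44.2% to 83.6% for the same genes in the wild-type library. As a measure of stray RNA in droplets, the same shares were taken in the 24 fibroblast-like cells deep enough to thin, at least 0.5% of whose UMIs came from the fibroblast markers. Dnmt1, Uhrf1, Dnmt3a and Dnmt3l were each found in 1 of the 24 (4.17%) and Tet1 in 2 (8.33%). Dnmt3b was found in 0 of the 24, which allows a share of up to 14.2% by the Clopper-Pearson interval. Tet2 was found in 5 of the 24 (20.8%, interval 7.13 to 42.2), which holds its shares in both libraries, so presence of Tet2 in a cell was not separable from that level. Over both libraries, Tet1 and Tet2 were 122.7 and 27.9 CPM in kept cells, and 2.58 and 16.8 CPM in fibroblast-like cells. Whether Tet2 in the fibroblast-like cells was stray or their own RNA was not tested, so its share is no sure measure of stray RNA. Median depths were 25688.5 UMIs in the kept cells and 19167 in the 32 fibroblast-like cells before thinning.

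**Figure D2:**
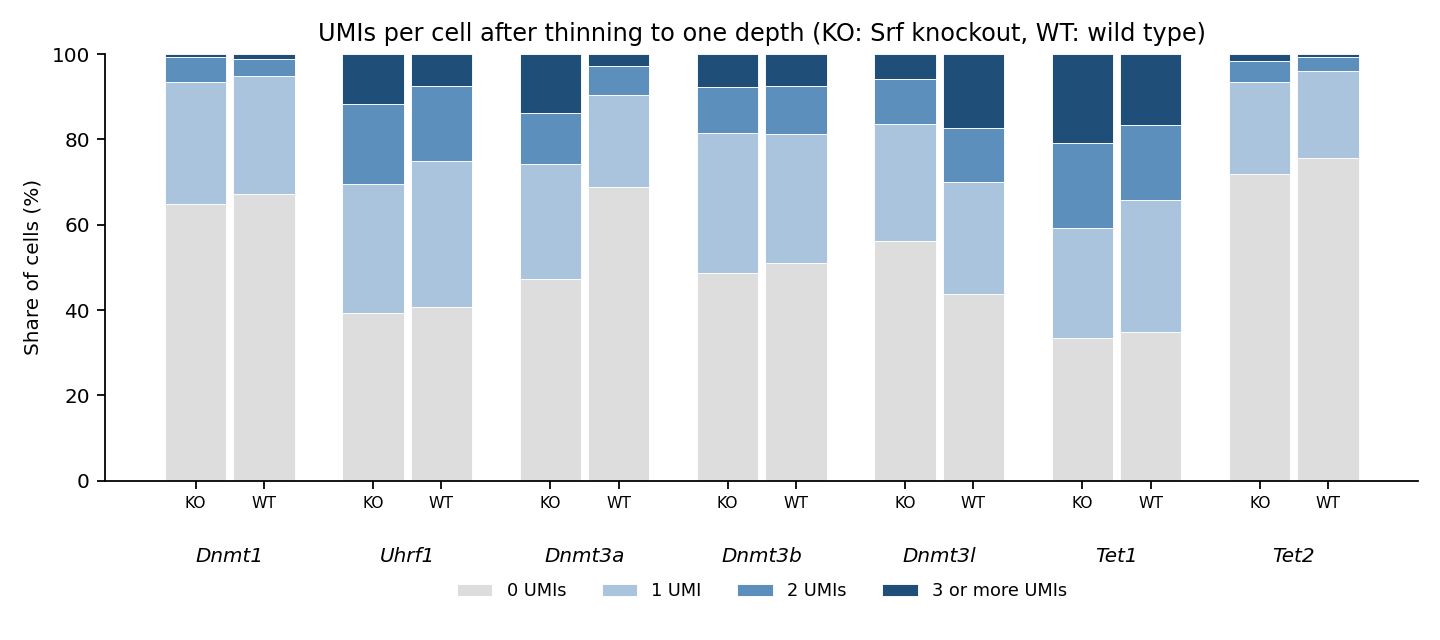
Share of cells (%) with 0, 1, 2 or at least 3 UMIs of each gene after each cell was thinned to 10235 UMIs, in 527 Srf knockout (KO) and 797 wild-type (WT) cells. The part without Dnmt3a is smaller in the knockout library, where 52.8% of cells hold it against 31.1%, and the part without Dnmt3l is larger, where 43.8% hold it against 56.3%.

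Cell-to-cell spread was described by the Fano factor (variance over mean) of the thinned counts, which is 1 for random sampling alone and had a median of 1.17 over 2354 genes in the knockout library and 1.15 over 2281 in the wild-type library. Dnmt1 was at 1.01 and 0.99, so its counts varied no more than sampling gives. Dnmt3a was at 1.87 and 1.62 and Tet1 at 1.635 and 1.304. Dnmt3l was at 1.43 in the knockout library and 2.07 in the wild-type library, the one gene of the 7 whose factor was clearly lower in the knockout library. Uhrf1 was at 1.28 and 1.08 and Tet2 at 1.24 and 1.09. Dnmt3b was at 2.13 and 1.51 after thinning, but single knockout cells with 11 and 15 UMIs enter that value, and without thinning the factors were 3.45 and 3.55. A Fano factor grows with the level, and the levels of Dnmt3a and Dnmt3l differed between the libraries.

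Since mitochondrial share differed between the libraries, each gene was read within 6 bands of it (1 to 2, 2 to 3, 3 to 4, 4 to 5, 5 to 7 and 7 to 10%). Dnmt3a was higher in the knockout library in 6 of 6 bands, with log2 ratios from 0.83 to 1.67 and every interval above 0. Dnmt3l was lower in 6 of 6, from -0.72 to -0.45, with 5 of the 6 intervals below 0. These differences were therefore present among cells of like mitochondrial share. The Tet genes did not behave this way. Tet1 was higher in the knockout library in 3 of 6 bands and Tet2 in 2 of 6, with 1 and 0 intervals above 0. Their levels were higher in bands of higher mitochondrial share. In the knockout library Tet1 went from 53.0 CPM in the lowest band to 221.1 CPM in the highest, and in the wild-type library from 71.1 to 181.2 CPM. Tet2 went from 12.97 to 56.3 CPM and from 14.0 to 40.3 CPM. A higher level in the highest band than in the lowest was not particular to the Tet genes. Dnmt3b went from 64.9 to 116.7 CPM in the knockout library and from 54.1 to 112.7 CPM in the wild-type library. Dnmt1 went from 24.9 to 51.2 CPM and from 37.1 to 56.4 CPM. Uhrf1 went from 46.5 to 115.7 CPM in the knockout library but from 83.9 to 64.4 CPM in the wild-type library. Dnmt3l fell, from 100.5 to 72.7 CPM and from 155.1 to 104.7 CPM. With wild-type cells weighted to the bands of the knockout library, an alternative added after the data were seen, the log2 ratio was 0.08 for Tet1 and 0.11 for Tet2, and it was 1.08 for Dnmt3a and -0.62 for Dnmt3l. Dnmt3b gave 4 bands higher and 2 lower, and Dnmt1 2 higher and 4 lower, with no interval off 0 for either. Uhrf1 was split, at -0.84 (-1.38 to -0.35) in the lowest band and 0.81 (0.08 to 1.70) in the highest.

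**Figure D3:**
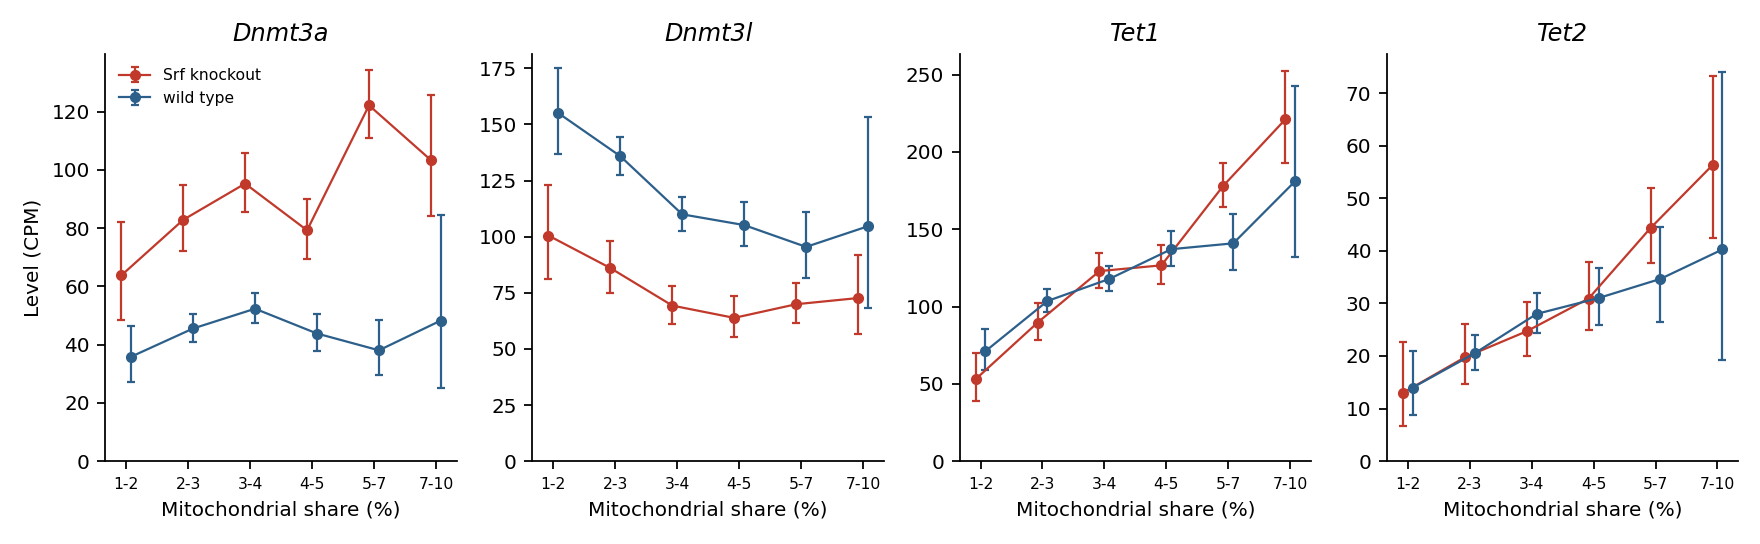
Level (CPM) of Dnmt3a, Dnmt3l, Tet1 and Tet2 in 6 bands of a cell's mitochondrial share (%), in the Srf knockout and wild-type libraries, with exact 95% counting intervals. The knockout values of Dnmt3a lie above and those of Dnmt3l below the wild-type values in each band, while Tet1 and Tet2 climb with the share in both libraries.

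The cells that the rule left out of the knockout library had other profiles of the 7 genes. The 95 cells with at least 10 UMIs of the primitive endoderm genes had Dnmt3b at 201.1 CPM (183.0 to 220.4) and Dnmt3l at 170.6 CPM (154.0 to 188.5), against 83.1 and 73.4 CPM in the kept cells. Tet1 in them was 53.0 CPM (44.0 to 63.4) and Uhrf1 49.1 CPM (40.4 to 59.1), both lower than in the kept cells, while Dnmt3a was 100.8 CPM (88.1 to 114.7). Such cells therefore combined more of the de novo enzyme Dnmt3b and its cofactor with less Tet1. In the wild-type library 3 cells were of this kind, too few to describe. Cells with more than 1 UMI of these genes that passed the other limits numbered 161 and 22. Dnmt3l in them was 125.7 CPM (115.1 to 137.1) in the knockout library and 82.5 CPM (61.2 to 108.8) in the wild-type library. Its lower level in the knockout library was thus not seen among these cells. Kept cells at the limit of 1 UMI numbered 146 and 125, and 36 and 15 that passed otherwise had 2 UMIs and were left out. With 0 UMIs required, the log2 ratio of Dnmt3l was -0.58, and with no limit on these genes it was -0.49.

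Cells under 1% mitochondrial counts, 227 in the knockout library with a median of 8552 UMIs, had little Tet RNA. Tet1 was 13.8 CPM (9.62 to 19.2) and Tet2 6.32 CPM (3.61 to 10.3) in them, while Dnmt3l was 110.1 CPM (97.6 to 123.9) and Dnmt3a 61.2 CPM (51.9 to 71.6). The 17 wild-type cells of this kind had Dnmt3l at 98.7 CPM (66.1 to 141.7), so a lower knockout level of Dnmt3l was not seen in them. At the other end, the 71 knockout cells over 10% had Tet1 at 382.7 CPM (334.1 to 436.3) and Tet2 at 101.2 CPM (77.1 to 130.6). The 33 such wild-type cells had Tet1 at 332.2 CPM (266.0 to 409.7), so the high Tet1 level went with the mitochondrial share in both libraries. Dnmt3l over 10% was 89.2 CPM (66.6 to 117.0) in the knockout cells and 164.2 CPM (118.8 to 221.1) in the wild-type cells. The part of RNA quality in these levels was not tested.

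**Figure D4:**
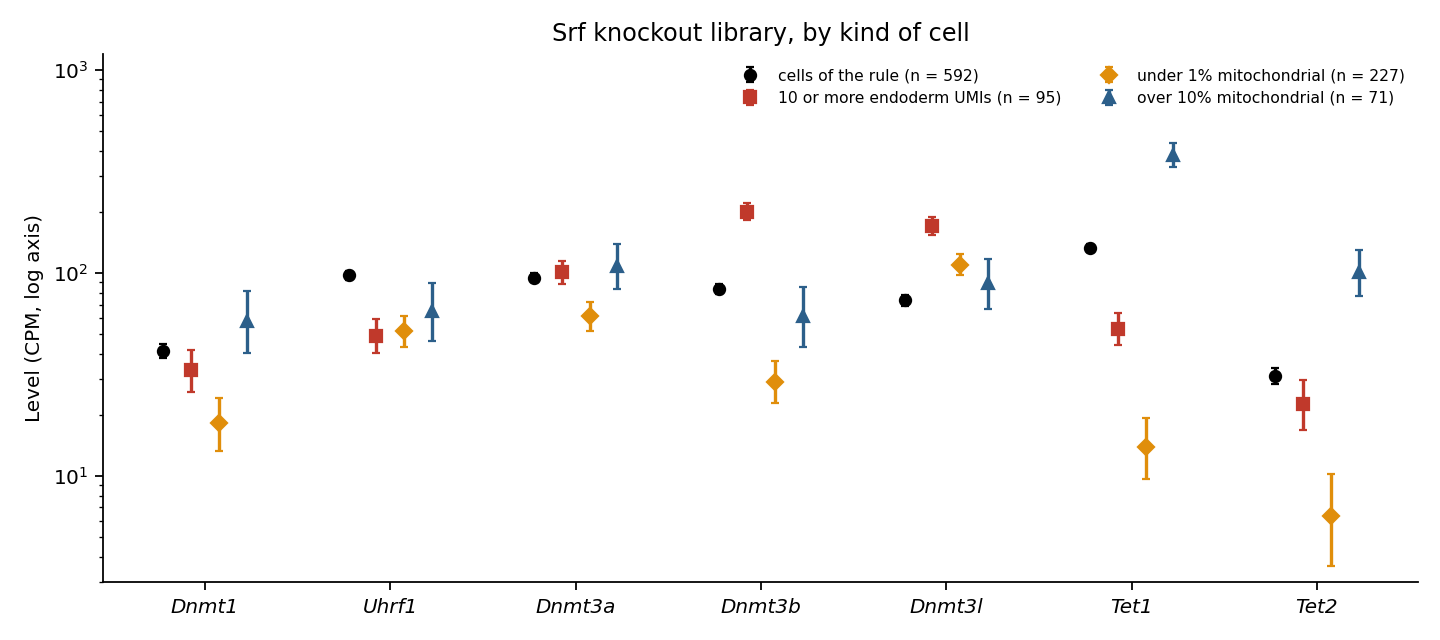
Level (CPM, log axis) of the 7 genes in 4 kinds of cell of the Srf knockout library, with exact 95% counting intervals and the number of cells in the key. Cells with endoderm transcripts have the highest Dnmt3b (201.1 CPM) and Dnmt3l (170.6 CPM), and Tet1 runs from 13.8 CPM under 1% mitochondrial counts to 382.7 CPM over 10%.

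Fibroblast-like cells, 32 over both libraries, had 11.6 CPM of Dnmt3a (5.31 to 22.0), 16.8 CPM of Tet2 (8.93 to 28.7) and 1.29 to 3.87 CPM of the other 5 genes. They made up 13 of the kept cells of the knockout library and 7 of those of the wild-type library. Srf had 14 UMIs in the 22 fibroblast-like cells of the knockout library, at 22.3 CPM (12.2 to 37.5), against 0.271 CPM in its kept cells. Whether these 22 cells carried the deletion was not tested. Without the fibroblast-like cells of both libraries the log2 ratio was 1.05 for Dnmt3a and -0.68 for Dnmt3l. In knockout cells with a raised share of chromosome 8, Tet1 was 116.1 CPM (108.3 to 124.3) and Tet2 24.0 CPM (20.5 to 27.9), against 149.5 CPM (140.9 to 158.4) and 37.9 CPM (33.7 to 42.6) in the others. In the wild-type library Tet1 was 134.1 CPM (119.5 to 149.95) and 113.9 CPM (109.3 to 118.6) in the same kinds of cell, so its order was turned. Tet2 kept its order there, at 22.7 CPM (17.0 to 29.8) and 26.1 CPM (23.9 to 28.4), with intervals that overlapped. Dnmt3a was 100.7 and 89.3 CPM in the knockout kinds, and both exceeded the 64.6 and 44.1 CPM of the wild-type kinds.

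Within each library, cells were ranked by the summed thinned UMIs of 10 naive pluripotency genes and put into 3 groups of equal size (low, middle and high). Tet2 was 20.5 CPM in the low and 48.6 CPM in the high group of the knockout library, and 19.8 and 32.8 CPM in the wild-type library. Tet1 was 104.4 and 172.0 CPM in the knockout library, and 115.3 and 126.5 CPM in the wild-type library. Dnmt3b ran the other way, at 111.0 and 72.0 CPM in the knockout library and 107.3 and 69.7 CPM in the wild-type library. Cells with more naive RNA thus held more Tet2 and less Dnmt3b in both libraries. The difference between the libraries was present at each level of naive RNA for Dnmt3a, with log2 ratios of 1.37, 0.96 and 1.1996 from the low group to the high group, and for Dnmt3l, with -0.93, -0.74 and -0.74. The median mitochondrial share was 4.01% in the low and 4.76% in the high knockout group, and 3.41% and 3.49% in the wild-type groups, and its part in the Tet levels was not tested.

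The same was done with 18 S phase genes, none of which is a member. Uhrf1, which acts at replication, was 67.7 CPM in the low and 143.5 CPM in the high group of the knockout library, and 77.5 and 106.9 CPM in the wild-type library. Its log2 ratio between the libraries was -0.19 (-0.53 to 0.13) in the low group, 0.23 (-0.05 to 0.51) in the middle group and 0.42 (0.18 to 0.67) in the high group. Dnmt1 was 47.7 and 45.2 CPM, and 37.8 and 36.9 CPM, so it did not climb with the S phase list. Dnmt3a was 67.2, 105.5 and 133.4 CPM from the low to the high group of the knockout library, and in the wild-type library it was 49.95, 36.4 and 48.7 CPM. Its log2 ratio between the libraries was 0.43 (0.06 to 0.79) in the low group, 1.53 (1.18 to 1.90) in the middle group and 1.45 (1.14 to 1.77) in the high group. The intervals of the low group and of the others did not overlap, but with 1 library per genotype the difference itself was not tested. By phase calls, the ratio for Dnmt3a was 0.16 (-0.46 to 0.78) in G1, 1.47 (1.21 to 1.73) in S and 1.03 (0.69 to 1.37) in G2M. For Dnmt3l it was -1.05, -0.83 and -0.63 in the same phases, lower in the knockout library in each. For Uhrf1 it was -0.64 (-1.24 to -0.09) in G1, 0.39 (0.18 to 0.59) in S and 0.14 (-0.16 to 0.43) in G2M, so its direction was not the same in each phase.

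Correlations across cells were weak. Over the 21 pairs of the 7 genes, the median Pearson correlation of log2(thinned count + 1) was 0.057 over 527 knockout cells and 0.031 over 797 wild-type cells. The highest was 0.177, for Dnmt3a with Dnmt3b in the knockout library, and 0.148, for Dnmt3a with Dnmt3l in the wild-type library. In sparse counts such values are no finding, and cells of 1 library share their source and depth. As counts of cells, Dnmt3b was found in 58.3% of knockout cells with Dnmt3a and 43.4% of those without it, and in 50.8% and 48.3% of wild-type cells. Dnmt3l was found in 42.4% of knockout cells with Dnmt3a and 45.4% of those without it, and in 66.1% and 51.9% of wild-type cells. Each gene of the de novo group was thus often seen without its partners, in cells thinned to a depth at which a transcript is easily missed.

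Among 2026 genes with at least 0.5 thinned UMIs per cell in each library, the genes most like each member were chosen by the smaller correlation of both libraries. For Tet1 these were Enah (0.307 in knockout cells and 0.245 in wild-type cells), an actin regulator, Jarid2 (0.226 and 0.203), a Polycomb cofactor, and Eif4g2 (0.191 and 0.199), a translation factor. For Tet2 they were Klf4 (0.160 and 0.156) and Tbx3 (0.135 and 0.167), both naive pluripotency factors, and Jarid2 (0.202 and 0.146). For Dnmt3a they were Mkrn1, Odc1 and Tcf15 (0.161 to 0.219 over both libraries). Odc1 was also the first of Dnmt3b, before Arid1a and Nt5dc2 (0.143 to 0.179), and Mkrn1 the first of Dnmt3l, before Eif4a1 and Upp1 (0.117 to 0.195). Uhrf1 was most like Atp5g1, Polr2f and Ybx3 (0.121 to 0.163), and Dnmt1 most like Gm42418, Wnk1 and Rbpj (0.084 to 0.126). The most unlike genes were Eef1a1 for both Tet1 (-0.273 and -0.211) and Dnmt3l (-0.140 and -0.109), Mif for Tet2, Gapdh for Uhrf1, Cd63 for Dnmt3a, H2afy for Dnmt3b and Itm2b for Dnmt1. These are descriptions of weak likeness. With the mitochondrial share of a cell, Tet1 had correlations of 0.331 in knockout cells and 0.108 in wild-type cells, and Tet2 0.229 and 0.108. Uhrf1 had 0.187 and 0.022. The part of that share in the likenesses was not tested.

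Among the partners and regulators of the methyltransferases, 13 of 14 genes had at least 10 CPM, with a median log2 ratio of 0.17. Of the 13, 0 were 1.5-fold higher and 1 was 1.5-fold lower, against 4.72% and 2.48% of all 6461 genes. That gene was Dppa3, which is known to keep Uhrf1 from chromatin, with 521 UMIs (35.3 CPM) in the knockout library and 2727 (119.4 CPM) in the wild-type library, a log2 ratio of -1.76 (-1.90 to -1.62). Dppa3 was therefore further from 0 than any of the 7 members. Hells, a chromatin remodeller needed for methylation, had a log2 ratio of 0.52, Setd2 0.42 and Zfp57, which guards methylation at imprinted regions, 0.40. Trim28 was at 0.32, Cdca7 at 0.17, Uhrf2 at 0.08 and Pcna at -0.15.

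For the removal of oxidised methylcytosine and its repair, 10 of 16 genes had at least 10 CPM, with a median of -0.03. Of the 10, 1 was 1.5-fold higher and 2 were 1.5-fold lower, against 4.72% and 2.48% of all 6461 genes. Parp1, a sensor of DNA breaks, was 494.0 CPM in the knockout library and 289.5 CPM in the wild-type library, a log2 ratio of 0.77 (0.72 to 0.82). Idh2, one of the enzymes that make alpha-ketoglutarate, a molecule that Tet enzymes need, was 43.8 and 87.3 CPM. Its log2 ratio was -0.995 (-1.13 to -0.87), and the supply of alpha-ketoglutarate was not measured. Gadd45b was 11.9 and 18.1 CPM, a log2 ratio of -0.61 (-0.88 to -0.35). Tdg, the glycosylase that removes the oxidised bases, was at 0.28, and Tet3, with 34 and 36 UMIs, was under the minimum in both libraries.

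In methyl donor supply, 9 of 11 genes had at least 10 CPM, with a median of 0.16. Of the 9, 1 was 1.5-fold higher and 0 were 1.5-fold lower, against 4.72% and 2.48% of all 6461 genes. Mat2a, which makes the methyl donor S-adenosylmethionine, was 188.8 CPM in the knockout library and 100.3 CPM in the wild-type library, a log2 ratio of 0.91 (0.83 to 0.99). Its regulatory subunit Mat2b was at -0.01. Mbd3, of the methyl-CpG binding proteins, was at -0.03. Of the 19 germline genes known to be silenced by promoter methylation, 3 had at least 10 CPM: Sycp3 at -0.71 (9.62 and 15.7 CPM), Mael at -0.94 (8.40 and 16.2 CPM) and Tex19.1 at 0.09. Sycp3 and Mael reached that mean only through the wild-type library. At 1 CPM or more there were 12 germline genes, with a median of 0.17, 4 past 1.5-fold higher and 2 past 1.5-fold lower. The share of all genes past 1.5-fold at this minimum is not given here, so these counts are not read as a result. The 4 higher ones were Rpl10l (13.01 and 6.79 CPM) at 0.94 (0.63 to 1.25), Dazl (47 and 37 UMIs) at 0.97 (0.32 to 1.64), Ddx4 (93 and 95 UMIs) at 0.60 (0.17 to 1.03) and Hormad1 (25 and 20 UMIs) at 0.94 (0.04 to 1.88). Hormad1, at 1.69 and 0.876 CPM, reached a mean of 1 CPM only through the knockout library. Ratios in the list thus ran both ways. The summed level of all 19 was 79.1 CPM (74.6 to 83.7) in the knockout library and 80.2 CPM (76.6 to 84.0) in the wild-type library, a log2 ratio of -0.02 (-0.13 to 0.09).

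Of the naive pluripotency genes, all 10 had at least 10 CPM, with a median of -0.07 and 0 past 1.5-fold; Nanog was at -0.50 and Nr5a2 at 0.47. Of the formative and primed genes 2 of 7 had at least 10 CPM, Lef1 at -0.63 and Pou3f1 at 0.21. The S phase list had 17 of 18 genes at 10 CPM or more and a median of 0.11, and the G2/M list 15 of 15 and a median of 0.08, with 0 past 1.5-fold in either. In the S phase list Chaf1b was at -0.47 and Mcm5 at 0.33, and in the G2/M list Kif20a was at 0.44 and Mki67 at 0.29. Over the 5 lists of methylation genes, 37 genes averaged 10 CPM or more, of which 2 were at least 1.5-fold higher in the knockout library (Mat2a and Parp1) and 5 were lower (Dppa3, Idh2, Mael, Sycp3 and Gadd45b), beside 4.72% and 2.48% of all genes. Mael, Sycp3 and Lef1 passed the minimum only through the wild-type library, where they were higher, so these counts lean on where the minimum was set. With a minimum of 1 CPM the same lists held 59 genes, 7 higher and 6 lower, without a share over all genes to set them against. In the S phase list the minimum left out Ccne2, a cyclin of the entry into S phase, which was 11.2 and 6.53 CPM with a log2 ratio of 0.78 (0.45 to 1.11).

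**Figure D5:**
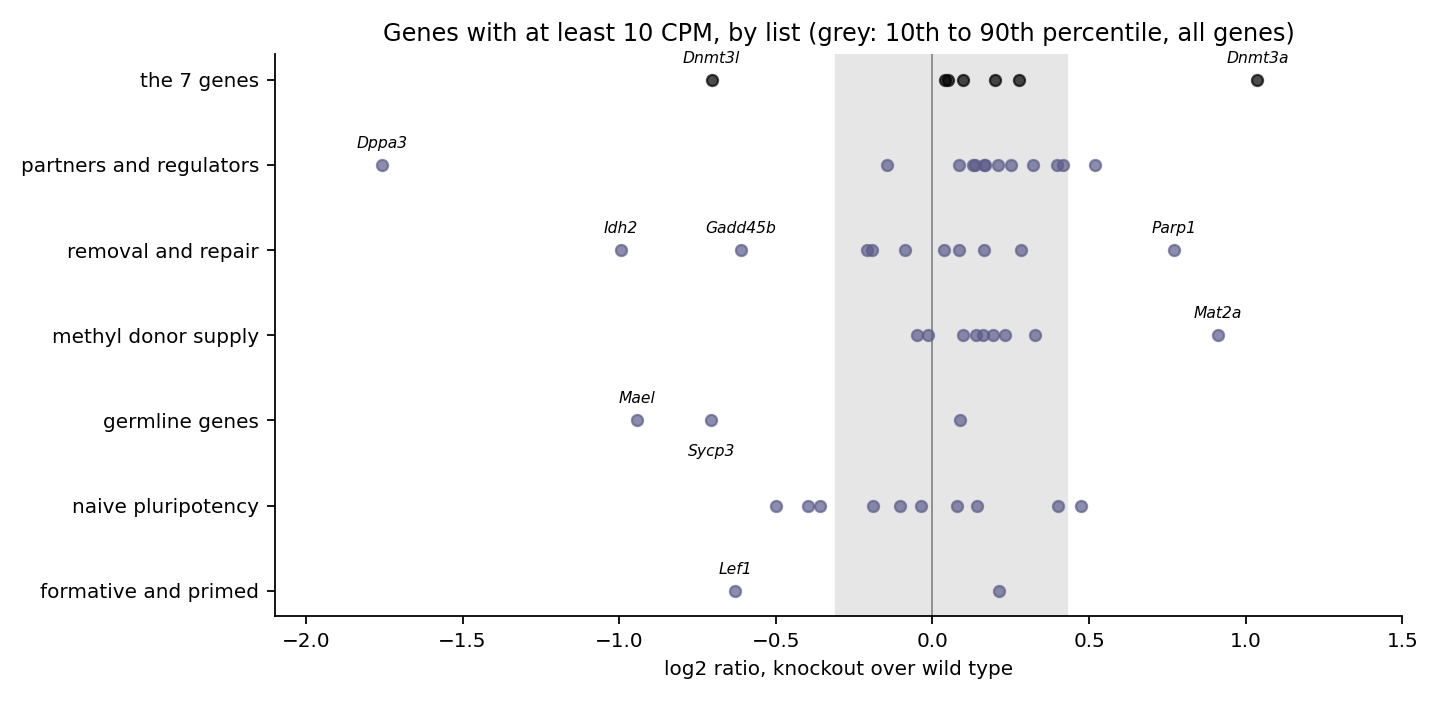
Log2 ratio of knockout over wild type for the 7 genes (black) and for the genes of 6 related lists with at least 10 CPM, 1 point per gene, with genes past 1.5-fold named. The grey band is the 10th to 90th percentile of 6461 genes (-0.31 to 0.43); Dnmt3a (1.04), Mat2a (0.91) and Parp1 (0.77) lie to its right and Dppa3 (-1.76) and Idh2 (-0.995) farthest to its left.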

How the data were processed

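Single-cell RNA sequencing of 1 Srf knockout library and 1 wild-type library was analysed; bulk RNA sequencing named in the design was not analysed here. Per the file headers, the authors deposited unnormalised integer counts, UMIs of each gene in each cell. The submitters' processing notes name Cell Ranger 2.0.0, Seurat 3.1.1 and mm10, without their roles; whether counting used the strand, and how droplets were called cells, is not given in the sources used here.

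Per library, the kept cells' counts were added up and scaled to CPM, and log2 ratios took 0.5 added counts. Intervals are exact (Poisson for CPM, conditional on the total for ratios, Clopper-Pearson for shares). Kept cells held 4633 to 67619 UMIs in the knockout library and 4636 to 65395 in the wild-type library. Scrublet (scanpy 1.11.5; doublet rate set to 0.8% for every 1000 cells) called 1 and 2 doublets in all cells, and 0 and 2 of the kept cells, which stayed in; so few calls mean that doublets may remain. The libraries shared 2 barcodes, none among kept cells. A chromosome 8 share over 1.2 times the wild-type median, over genes of at most 500 CPM, was called raised. Identifiers of 27645 genes (98.7%) matched GENCODE M21 (GRCm38). TMM scaling used edgeR 4.0.16. The scripts were tested on simulated data.

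Genes named from each list were those past 1.5-fold, otherwise the 2 farthest from 0. Hells, Tex19.1 and Pou3f1 were named outside this rule. Setd2, Zfp57, Trim28, Cdca7, Uhrf2, Pcna, Tdg, Tet3, Mat2b, Rpl10l, Dazl, Ddx4, Hormad1, Ccne2, Aire and the neighbours were named after their values were seen. 1 result of these lists is not reported here. The members and lists were chosen with earlier results of these data known. Marker lists not given in the report summed, in knockout and wild-type cells, to 6.84 and 15.5 CPM (trophectoderm), 6.10 and 7.66 (mesoderm), 9.96 and 6.35 (neuroectoderm), 4.95 and 5.69 (macrophage) and 9.89 and 5.47 (primitive endoderm).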

Additional observations from a re-analysis of the deposited data

How the results depend on the processing

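With 16 alternatives for each ratio, Dnmt3a stayed higher in the knockout library (0.96 to 1.18, the highest in thinned cells) and Dnmt3l lower (-0.80 to -0.42). No lower mitochondrial limit gave Dnmt3b -0.098, Dnmt3l -0.60 and Tet1 0.013. No primitive endoderm limit gave Dnmt3b 0.25, Dnmt3l -0.49 and Tet1 0.079, and a limit of 0 UMIs gave Uhrf1 -0.0040 and Dnmt3l -0.58. With neither limit, Dnmt1 was -0.11, Uhrf1 -0.075, Dnmt3l -0.42, Tet1 -0.087 (against 0.20) and Tet2 0.056. Cells with the usual chromosome 8 share gave Dnmt1 0.20, Tet1 0.39 and Tet2 0.54. Thinned cells gave Uhrf1 0.21 and Dnmt3a 1.18. Weighting each cell alike gave Tet1 0.10, and matching mitochondrial bands, added after seeing the data, gave 0.079. The cause of these moves was not tested. TMM scaling moved all ratios by -0.08 and median-of-ratios scaling by -0.06. The median correlation over pairs in knockout cells was 0.11 without thinning. Over the 5 lists of methylation genes, 2 genes were higher and 5 lower past 1.5-fold. A limit of 2-fold gave 0 and 1, and a minimum of 1 CPM gave 7 higher and 6 lower. At 2-fold the shares of all 6461 genes were 0.975% higher and 0.635% lower. For the minimum of 1 CPM no share over all genes is given, so its counts are not read as a result. No paired analysis was possible because there was 1 library per genotype. Of the 7 genes, Dnmt1 and Tet2 had the fewest UMIs and the widest intervals, and intervals cover counting error only.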
